A study of Homo sapiens with 6 samples.

Results

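The genes described here encode the proteins of the mitochondrial ribosome, and they were taken by symbol from the deposited read count table. A gene was a member when its symbol starts with MRPL or MRPS and a digit and carries no antisense or pseudogene suffix. Such a symbol start occurs in 79 of the 23250 tabulated genes. Of these, the antisense gene MRPL23-AS1 and the pseudogenes MRPL42P5 and MRPL45P2 were left out, and 76 members remained. The rule reads symbols alone. The cells were OCI-LY1, an established human line of diffuse large B cell lymphoma, grown in IMDM with fetal bovine serum and HEPES. In all 6 libraries siRNA had been used against BCL6, the transcriptional repressor that germinal centre B cells depend on. In 3 libraries wild-type BCL6 was then expressed from an introduced copy (wild-type rescue), and in the other 3 a form mutated in the second repression domain, RD2 (mutant rescue). The comparison asks how transcript levels differ between cells given the mutant and cells given the wild-type protein. Cells with no rescue, with no siRNA or of a second line were not analysed here. The labels do not say whether the 3 libraries of a rescue came from separate cultures, so p-values measure the spread between these samples, which may be technical.

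The mitochondrial ribosome translates the few messages encoded by mitochondrial DNA, all of them for core subunits of the respiratory chain and ATP synthase. Its ribosomal RNAs come from mitochondrial DNA, while every one of its proteins is encoded in the nucleus, made in the cytosol and imported. Part of the proteins descend from the bacterial ribosome and part were added in the mitochondrial lineage, and the large subunit joins amino acids while the small subunit reads the message. In germinal centre B cells and in the lymphomas derived from them, mitochondrial translation is known to feed oxidative phosphorylation.

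The 6 libraries held 26298456 to 27574867 counts, and TMM scaling factors were 0.987 to 1.019. BCL6 itself was present in every library. It was at 695, 650 and 689 CPM (counts scaled to library size with TMM factors) in the wild-type rescue. In the mutant rescue BCL6 was at 529, 511 and 519 CPM. Its log2 fold change, mutant minus wild-type, was -0.38 (edgeR quasi-likelihood test, adjusted p = 7.91e-10). The counts cannot separate the cells' own transcript from the introduced one, so they do not check the depletion. In the results below, the part of this lower BCL6 level and that of the mutation cannot be told apart. B lineage genes were abundant in both rescues, CD79B at a mean of 1178 and 1350 CPM and PAX5 at 226 and 271 CPM. MS4A1, which encodes CD20, was at 583 and 107 CPM. Of 14 markers of T cells, myeloid cells, epithelium and fibroblasts 1 passed the filter on low counts, EPCAM, which fell from 16.0 to 3.71 CPM. CD3E and CD2 were at 0 counts in all libraries. The 14 markers summed to 15.8 to 17.2 CPM in the wild-type and 4.39 to 4.95 CPM in the mutant rescue, and their part in the results below was not tested.

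Most mitochondrial ribosomal protein genes were expressed at a lower level in the mutant rescue, by small amounts. All 76 members passed the filter on low counts, 45 fell, 11 rose and 20 did not pass the test (edgeR quasi-likelihood test, adjusted p under 0.05, adjusted over all 12406 tested genes). Over all tested genes 34.8% were called lower and 35.4% higher, so 70.1% of genes were called in some direction. Among the members 59.2% were called lower and 14.5% higher. Their median log2 fold change, mutant minus wild-type, was -0.17, a level 11.0% lower, beside a median of 0.01 over all tested genes. The middle part of the members, from the first to the third quartile, began at -0.34 and ended at about no change, against -0.27 to 0.31 for all tested genes. Single members ranged from -1.04 to 0.33.

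**Figure D1:**
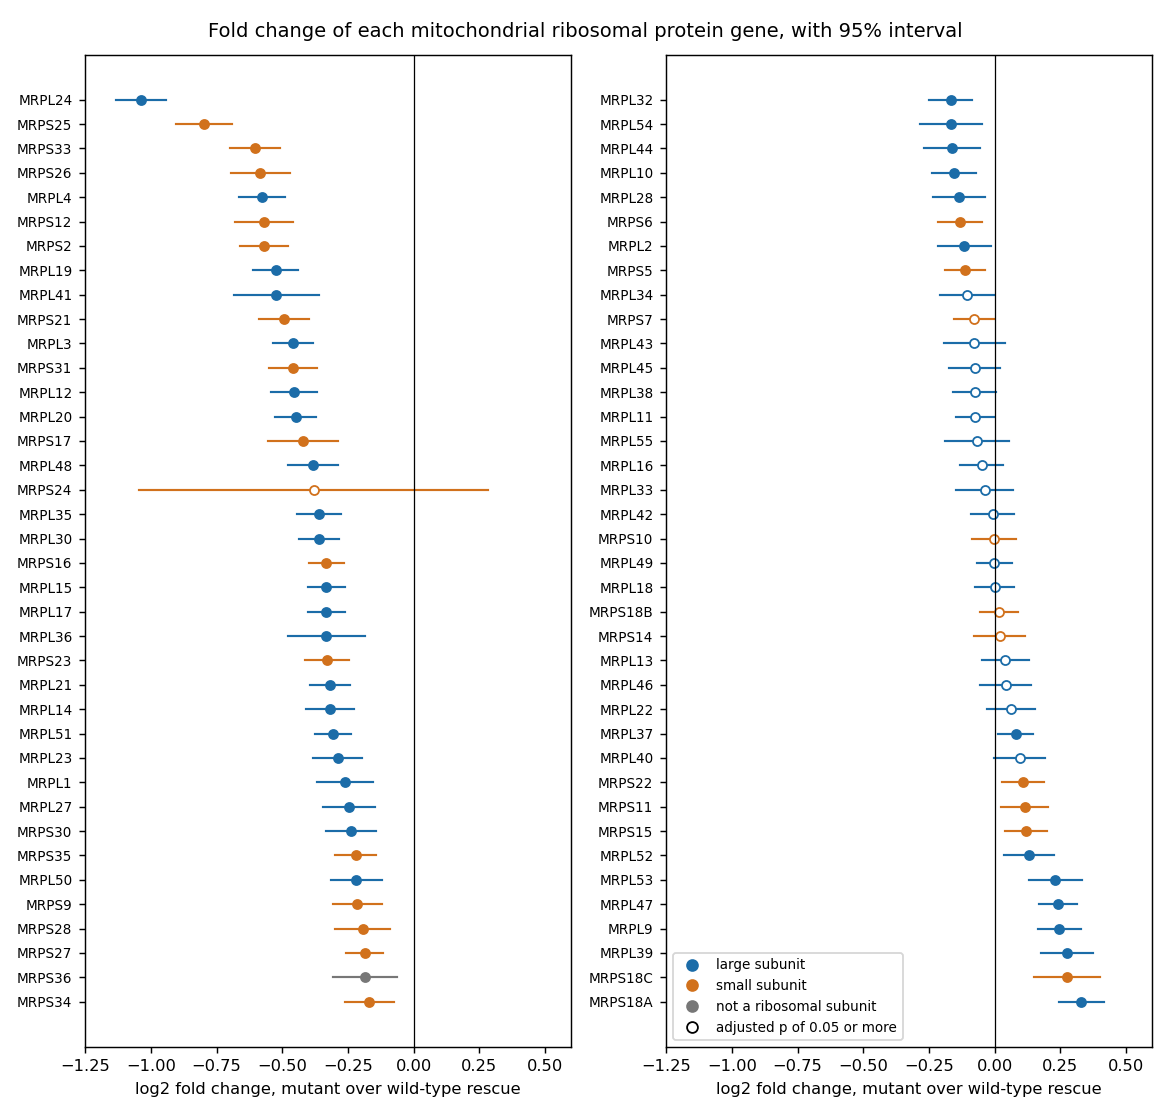
Log2 fold change (x axis, mutant over wild-type rescue) of each of the 76 mitochondrial ribosomal protein genes, sorted from the lowest at the upper left to the highest at the lower right; points are edgeR estimates over 3 against 3 libraries, bars their 95% intervals, filled points adjusted p under 0.05. MRPL24 stands lowest at -1.04, MRPS18A highest at 0.33, and MRPS24 has the widest interval.

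**Figure D2:**
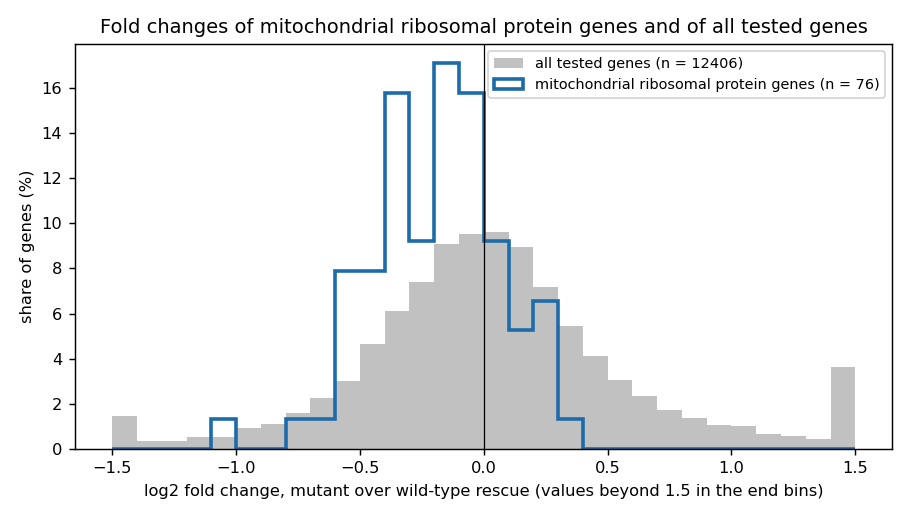
Share of genes (y axis, percent) by log2 fold change (x axis, mutant over wild-type rescue, bins of equal width, values beyond the axis gathered in the end bins) for the 76 mitochondrial ribosomal protein genes (line) and all 12406 tested genes (grey). The line lies mostly left of 0 and has neither of the long tails of the grey distribution; the medians are -0.17 and 0.01.

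Read as a sum, the members took 0.601%, 0.603% and 0.599% of all counts in the wild-type rescue libraries and 0.536%, 0.537% and 0.541% in the mutant rescue libraries. The groups did not overlap. On the TMM-scaled CPM scale the sum was 6063 ± 44.1 (SD, n = 3) in the wild-type and 5331 ± 67.7 (SD, n = 3) in the mutant rescue, a ratio of 0.879. The large subunit genes summed to 3957 ± 36.5 and 3517 ± 49.7 CPM and the small subunit genes to 2085 ± 7.81 and 1795 ± 17.8 CPM (SD, n = 3 each). No spike-in is named in the labels, so these are shares of the RNA sequenced and say nothing of RNA per cell, and in a bulk sample fewer cells of a type and less RNA per cell cannot be told apart. Member by member, 61, 55 and 59 of the 76 lay below the wild-type mean in the 3 mutant libraries, with median log2 deviations of -0.17, -0.16 and -0.15, so no single mutant library carried the lower sum. In the wild-type libraries 43, 27 and 47 lay below it. For 47 members all mutant libraries were below all wild-type libraries and for 12 all were above, where 35.6% and 36.8% of all tested genes separated in these directions.

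The size of the change mattered for how many members counted as changed. When edgeR's glmTreat asked for more than a 1.2-fold change, 22 members were lower and 1, MRPS18A, was higher, where 17.7% and 19.2% of all tested genes passed in these directions. The 22 were MRPL3, MRPL4, MRPL12, MRPL15, MRPL17, MRPL19, MRPL20, MRPL24, MRPL30, MRPL35, MRPL41, MRPL48, MRPS2, MRPS12, MRPS16, MRPS17, MRPS21, MRPS23, MRPS25, MRPS26, MRPS31 and MRPS33. The remaining 23 called lower and 10 called higher thus changed by amounts that were not shown to exceed 1.2-fold.

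MRPL24, the homologue of the bacterial protein L24 that sits beside the exit of the nascent chain tunnel, fell the most. It was at 69.3, 65.5 and 66.2 CPM in the wild-type and 33.6, 33.0 and 31.3 CPM in the mutant rescue. Every mutant library was at about the same low level, and the groups were far apart. The level was 2.05-fold lower (log2 -1.04, SE 0.046, edgeR, adjusted p = 2.58e-14). MRPL24 overlaps HDGF on chromosome 1, and the strand setting of the counting is unknown, so reads of the pair may not be fully separated. HDGF itself was at a log2 fold change of 0.14. MRPS25, a small subunit protein added in the mitochondrial lineage, was second, at 112, 105 and 109 CPM against 67.8, 57.2 and 62.7 CPM. The groups again did not overlap, though the mutant libraries spread more widely (SD 5.30 against 3.55 CPM). Its log2 fold change was -0.80 (SE 0.050, edgeR, adjusted p = 1.15e-10), and the overlapping gene NR2C2 on chromosome 3 was at 0.40.

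Behind these came a group of 6 with falls of about 30% to 34%. MRPS33, another mitochondrial-specific small subunit protein, was at 71.0, 77.3 and 69.4 CPM against 48.1, 48.6 and 46.5 CPM, a log2 fold change of -0.60 (edgeR, adjusted p = 2.09e-10). MRPS26, of the same class, was at 45.0, 44.0 and 43.0 CPM against 30.3, 26.8 and 31.0 CPM, a log2 fold change of -0.58 (edgeR, adjusted p = 4.69e-09). In neither gene did a mutant library come near the lowest wild-type library. MRPL4, whose bacterial counterpart reaches into the wall of the tunnel, was at 149, 144 and 144 CPM against 97.7, 90.9 and 104 CPM, a log2 fold change of -0.58 (edgeR, adjusted p = 8.61e-11). MRPS12, the protein of the decoding centre, was at 60.8, 63.2 and 56.8 CPM against 40.6, 37.7 and 43.5 CPM, a log2 fold change of -0.57 (edgeR, adjusted p = 6.4e-09). Both genes had their highest mutant value in library 3 and still no overlap. MRPS2, a member of the bacterial S2 family on the small subunit, was at 56.1, 55.4 and 58.5 CPM against 38.2, 38.5 and 38.0 CPM, a log2 fold change of -0.57 (edgeR, adjusted p = 2.56e-10). MRPL19, the homologue of bacterial L19, was at 112, 116 and 113 CPM against 76.0, 84.4 and 76.1 CPM, a log2 fold change of -0.52 (edgeR, adjusted p = 4.2e-10). The 3 mutant values of MRPS2 were nearly the same, while for MRPL19 mutant library 2 stood above the other two.

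The rises were smaller than the falls. MRPS18A, a homologue of bacterial S18 that is built into the large subunit in spite of its name, was at 50.3, 50.1 and 48.3 CPM in the wild-type and 63.6, 61.4 and 61.8 CPM in the mutant rescue, with no overlap. It rose 1.26-fold (log2 0.33, SE 0.041, edgeR, adjusted p = 4.73e-07) and shares sequence on chromosome 6 with the overlapping gene RSPH9. MRPS18C, an S18 homologue of the small subunit, was at 19.0, 18.1 and 20.3 CPM against 23.2, 22.6 and 23.7 CPM, a log2 fold change of 0.28 (edgeR, adjusted p = 0.000422). RefSeq lists 6 pseudogenes named after MRPS18C, and reads could be shared with them. The third homologue, MRPS18B, also of the small subunit, was at 126, 132 and 128 CPM against 128, 134 and 128 CPM. Those groups overlapped, and the change of 1.25% had a 95% interval from -3.69% to 6.46% (edgeR, adjusted p = 0.656).

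The other 3 of the 5 largest rises were large subunit genes. MRPL39, a mitochondrial-specific protein, was at 58.2, 61.0 and 54.9 CPM against 67.8, 74.1 and 68.5 CPM, a log2 fold change of 0.27 (edgeR, adjusted p = 2.68e-05). MRPL9, the homologue of bacterial L9, was at 65.6, 65.5 and 65.2 CPM against 76.3, 80.8 and 75.7 CPM, a log2 fold change of 0.25 (edgeR, adjusted p = 1.32e-05). In MRPL9 the wild-type libraries were nearly identical and all mutant libraries were above them. MRPL47, the counterpart of bacterial L29 at the tunnel exit, was at 126, 128 and 126 CPM against 147, 156 and 146 CPM, a log2 fold change of 0.24 (edgeR, adjusted p = 3.25e-06). MRPL9 overlaps OAZ3 in the RefSeq annotation, which was at 1.05, and MRPL47 overlaps ACTL6A, which was at -0.16 on the log2 scale. The remaining 6 that rose were MRPL53 at a log2 fold change of 0.23, MRPL52 at 0.13, MRPS15 at 0.12, MRPS11 at 0.11, MRPS22 at 0.11 and MRPL37 at 0.08. Of these, MRPL52 was the one in which the groups overlapped, its second library being at 65.5 CPM in both rescues.

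At the other end, 4 members had nearly the same level in both rescues. MRPL18 was at 98.3, 95.1 and 98.7 CPM against 95.9, 99.4 and 96.8 CPM, and the 95% interval of its change ran from -5.09% to 5.28%. MRPL49 was at 172, 169 and 172 CPM against 167, 176 and 170 CPM, with an interval from -4.67% to 4.77%. MRPS10 was at 70.2, 72.4 and 68.6 CPM against 69.1, 72.7 and 68.9 CPM, with an interval from -5.85% to 5.82%. All 3 genes had overlapping groups, and so had MRPL42, at 77.9, 77.8 and 79.0 CPM against 74.7, 80.8 and 77.9 CPM with an interval from -6.04% to 5.25%. Changes of the size seen in MRPS2 or MRPL19 lie outside these intervals. For MRPL42 the adjusted p went from 0.862 to 0.0116 at a log2 fold change of -0.10 once trends with GC content and transcript length were removed; the transcript length of this gene is uncertain in the annotation.

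**Figure D3:**
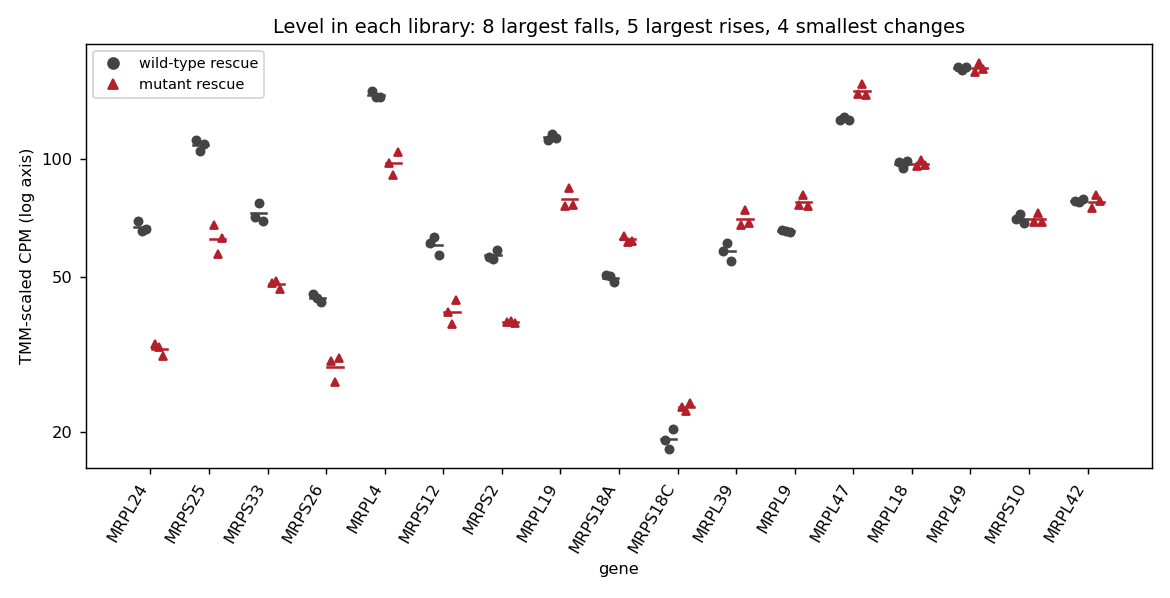
TMM-scaled CPM (y axis, log scale) in each library for the 8 members with the largest falls, the 5 with the largest rises and the 4 with the smallest changes; circles are the 3 wild-type rescue libraries, triangles the 3 mutant rescue libraries, bars the group means. The symbols separate for each of the first 13 genes and mix for MRPL18, MRPL49, MRPS10 and MRPL42.

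The counts by subunit, origin and role that follow stand beside 34.8% lower and 35.4% higher over all tested genes. Sorted by subunit, the 49 large subunit genes had a median log2 fold change of -0.15, with 27 lower, 7 higher and 15 not passing the test. The 26 small subunit genes had a median of -0.20, with 17 lower, 4 higher and 5 not passing. MRPS36 stands apart, since its protein is now known as a subunit of the oxoglutarate dehydrogenase complex and not of the ribosome. It was at 21.5, 20.8 and 20.7 CPM against 18.2, 18.8 and 18.5 CPM and fell by 12.1% (edgeR, adjusted p = 0.00822). Its change was thus close to the median of the ribosomal genes.

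By evolutionary origin, the 48 homologues of bacterial proteins had a median log2 fold change of -0.18 (29 lower, 6 higher) and the 27 proteins added in the mitochondrial lineage a median of -0.17 (15 lower, 5 higher). Split by both properties, the medians were -0.25 for 31 large subunit homologues (20 lower, 3 higher), -0.08 for 18 mitochondrial-specific large subunit proteins (7 lower, 4 higher), -0.13 for 17 small subunit homologues (9 lower, 3 higher) and -0.33 for 9 mitochondrial-specific small subunit proteins (8 lower, 1 higher). The 9 were MRPS22, which rose, and MRPS23, MRPS25, MRPS26, MRPS27, MRPS31, MRPS33, MRPS34 and MRPS35, which fell. No test of a difference between these classes was made.

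The stalk that holds MRPL12 brings the elongation factors to the ribosome. Of 4 genes for the stalks and factor binding of the large subunit 3 fell. MRPL12, the stalk protein that binds the factors, was at 119, 121 and 115 CPM against 85.6, 81.3 and 92.2 CPM, a log2 fold change of -0.45 (edgeR, adjusted p = 4.98e-09). The highest mutant library of MRPL12 stayed below the lowest wild-type library. MRPL1, of the other stalk, was at a log2 fold change of -0.26 and MRPL10, which anchors MRPL12, at -0.15. MRPL11 was at -0.08 with an adjusted p of 0.055 in the edgeR test, although its mutant libraries, at 106, 107 and 106 CPM, all lay below its wild-type libraries, at 110, 114 and 112 CPM. MRPL11 passed in 7 alternatives, among them the removal of trends with GC content and length (adjusted p = 0.00751).

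Around the peptidyl transferase centre and along the wall of the tunnel, 4 of 6 genes fell. MRPL3, which reaches towards the catalytic centre, was at 187, 199 and 192 CPM against 134, 142 and 144 CPM, a log2 fold change of -0.46 (edgeR, adjusted p = 3.87e-10). MRPL4 fell as given above, MRPL27 by 0.25 and MRPL2 by 0.12 on the log2 scale, and the call of MRPL2 was lost in 7 alternatives besides the 1.2-fold test. MRPL16 and MRPL22 did not pass, with changes of -3.34% (interval -8.64% to 2.28%) and 4.29% (interval -2.07% to 11.1%).

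The 5 genes of the tunnel exit spanned nearly the whole range of the members. MRPL24, MRPL17 (log2 fold change -0.33) and MRPL23 (-0.29) fell, and MRPL47 rose. MRPL45, which holds the ribosome to the inner membrane where the new chains are inserted, was at 42.3, 46.3 and 44.3 CPM against 42.1, 42.1 and 41.8 CPM. Its wild-type libraries spread more than its mutant libraries, the groups were only just separate, and the change of -5.16% (interval -11.3% to 1.41%) did not pass the test (edgeR, adjusted p = 0.147), though it did in 2 alternatives, both with the GC content and length trends removed. MRPL23 lies in a stretch of chromosome 11 that it shares in the annotation with H19, MIR675 and the antisense gene MRPL23-AS1.

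In the central protuberance, the top of the large subunit that faces the small one, 1 of 5 genes passed. MRPL48 was at 66.2, 70.8 and 71.3 CPM against 50.3, 55.6 and 53.9 CPM, a log2 fold change of -0.38 (edgeR, adjusted p = 2.37e-07). MRPL18, MRPL38, MRPL40 and MRPL46 did not pass, at changes between -5.11% and 6.76%, although MRPL38 passed as lower in 3 alternatives and MRPL40 as higher in 4. At the decoding centre and the path of the message MRPS12 and MRPS5 (log2 fold change -0.11) fell and MRPS11 rose, while MRPS7 was at -0.08 (edgeR, adjusted p = 0.0658) and passed in 6 alternatives. The fifth gene there, MRPS24, had 20, 28 and 15 counts in the wild-type and 19, 9 and 20 counts in the mutant libraries. Its change of -23.2% had an interval from -51.5% to 21.6%, so a change of the size seen in other members was not detectable at these counts. It overlaps the readthrough gene URGCP-MRPS24 in the annotation. Every other member averaged at least 452 counts.

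The 28 large subunit genes with no such place in the list of roles included 16 that fell, 5 that rose and 7 that did not pass, with a median of -0.16. MRPL41 was at 19.3, 20.5 and 19.9 CPM against 14.9, 11.8 and 14.7 CPM, a log2 fold change of -0.52 (edgeR, adjusted p = 4.32e-06). MRPL20 was at 119, 123 and 117 CPM against 87.8, 90.1 and 84.3 CPM, a log2 fold change of -0.45 (edgeR, adjusted p = 9.74e-10). The groups of both genes were separate. The 19 other small subunit genes included 15 that fell, 2 that rose and 2 that did not pass, with a median of -0.22. MRPS16, the homologue of bacterial S16, was among those at -0.33, at 219, 218 and 217 CPM against 171, 177 and 171 CPM.

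Per kilobase of transcript the most abundant members in the wild-type rescue were MRPL15 at 200, MRPL20 at 165 and MRPL37 at 138 CPM per kilobase, and in the mutant rescue they were at 159, 121 and 146 CPM per kilobase. MRPL15, a homologue of bacterial L15, fell by 0.33 on the log2 scale, from 227, 234 and 228 CPM to 177, 189 and 181 CPM (edgeR, adjusted p = 1.7e-08). MRPL37, a mitochondrial-specific protein, was at 201, 209 and 205 CPM against 219, 220 and 211 CPM (edgeR, adjusted p = 0.0351), separate groups but a call that was lost in 7 alternatives besides the 1.2-fold test. At the low end stood MRPS24 at 1.11 CPM per kilobase, MRPL42 at 9.48, where the length is uncertain, and MRPS18C at 11.6. As counted, the transcripts for proteins of 1 complex thus differed widely in level. MRPS24 overlaps the readthrough gene URGCP-MRPS24, and how reads of that pair were assigned is not known. Across the 76 members the log2 fold change showed hardly any relation to mean log2 CPM (Pearson's r 0.06, Spearman's rho 0.01) or to GC content (r -0.15, rho -0.07), values that describe genes measured in the same libraries. The members had shorter transcripts than tested genes in general, with a median of 1357 against 2962 bases, and a similar GC content, 49.6% against 48.7%.

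Overlap with other genes and pseudogenes could blur single values, since neither the strand setting nor the rule for reads with several matches is given. Free of overlap with any other tabulated gene were 58 members, of which 36 fell and 7 rose (62.1% and 12.1%), with a median of -0.19. Of the 35 for which RefSeq lists no pseudogene 22 fell and 3 rose (62.9% and 8.57%), with a median of -0.17. Over all tested genes 34.8% were called lower and 35.4% higher. The medians of both subsets were close to that of all members. Members free of overlap had a narrower range, from -0.60 to 0.28, against -1.04 to 0.33 for all members. MRPL24, MRPS25, MRPS18A, MRPL9 and MRPL47, among the largest falls and rises, each overlap a tabulated gene. The 76 genes lie on 21 chromosomes.

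The promoters of the genes were read from RefSeq (assembly GRCh38.p14) as windows of 300 bases, 250 before the annotated start and 50 from it on, for the 68 members with an entry. The 5 windows shown belong to genes that fell strongly or rose, or that carry several of the motifs searched; capitals mark matches to those motifs. MRPL24, the member with the largest fall, is at chr1:156741039-156741338 on the minus strand and has no match. MRPS12 is at chr19:38930694-38930993 on the plus strand and has 4 CCAAT boxes. MRPL36, the homologue of bacterial L36, which fell by 0.33 on the log2 scale, is at chr5:1799788-1800087 on the minus strand and has an E-box followed by a YY1 motif on the opposite strand. MRPL52, which rose, is at chr14:22829637-22829936 on the plus strand and has 2 YY1 motifs and an inverted ETS motif. MRPS18A, the member with the largest rise, is at chr6:43687742-43688041 on the minus strand and has, in order, an inverted BCL6 motif, an inverted CCAAT box, an inverted SP1 motif and, just past the start, a YY1 motif.
MRPL24: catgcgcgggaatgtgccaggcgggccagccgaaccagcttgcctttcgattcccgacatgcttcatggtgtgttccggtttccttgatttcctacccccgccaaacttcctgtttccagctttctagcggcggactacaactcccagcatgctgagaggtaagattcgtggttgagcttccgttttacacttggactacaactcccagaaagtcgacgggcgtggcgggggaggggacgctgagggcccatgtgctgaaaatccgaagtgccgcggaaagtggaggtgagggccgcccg
MRPS12: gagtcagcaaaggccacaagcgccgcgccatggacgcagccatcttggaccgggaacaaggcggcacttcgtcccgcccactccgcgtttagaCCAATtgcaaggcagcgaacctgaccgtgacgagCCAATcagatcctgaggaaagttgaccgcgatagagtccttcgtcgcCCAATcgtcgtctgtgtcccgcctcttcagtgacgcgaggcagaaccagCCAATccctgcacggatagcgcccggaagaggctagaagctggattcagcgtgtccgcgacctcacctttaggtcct
MRPL36: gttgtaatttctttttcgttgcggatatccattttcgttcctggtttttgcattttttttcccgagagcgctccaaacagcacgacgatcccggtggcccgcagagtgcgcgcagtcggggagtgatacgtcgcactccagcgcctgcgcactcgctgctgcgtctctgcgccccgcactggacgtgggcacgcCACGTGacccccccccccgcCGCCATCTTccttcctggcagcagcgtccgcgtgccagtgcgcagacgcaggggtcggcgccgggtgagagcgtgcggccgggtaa
MRPL52: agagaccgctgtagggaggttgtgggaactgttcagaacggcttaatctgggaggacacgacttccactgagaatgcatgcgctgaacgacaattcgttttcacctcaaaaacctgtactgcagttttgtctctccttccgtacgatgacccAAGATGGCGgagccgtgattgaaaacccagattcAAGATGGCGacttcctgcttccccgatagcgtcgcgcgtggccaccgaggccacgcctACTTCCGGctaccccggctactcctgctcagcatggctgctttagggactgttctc
MRPS18A: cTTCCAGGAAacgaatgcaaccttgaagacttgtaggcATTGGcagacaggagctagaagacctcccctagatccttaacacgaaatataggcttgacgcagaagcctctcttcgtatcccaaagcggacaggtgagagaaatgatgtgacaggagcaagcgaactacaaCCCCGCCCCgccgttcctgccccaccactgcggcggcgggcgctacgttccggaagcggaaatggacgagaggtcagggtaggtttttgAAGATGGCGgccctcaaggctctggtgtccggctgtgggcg

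Motifs were searched on both strands as exact letters: GCGCATGCG for NRF1, CCGGAAGT for ETS factors such as GABP, AAGATGGCG for YY1, CACGTG for the E-box of MYC, TTCCTNGAA for BCL6, CCAAT for NF-Y and GGGGCGGGG for SP1. None of these contains another, but matches may overlap. Counted over the 84 windows of the members, the YY1 motif was in 15.5%, against 1.7% of all 35116 windows and 3.7% of the windows of tested genes. The ETS motif was in 16.7%, against 4.1% and 7.7%. The E-box was in 11.9% (7.3% and 9.5%), the NRF1 motif in 3.6% (1.9% and 3.3%), the SP1 motif in 22.6% (15.7% and 24.6%), the CCAAT box in 33.3% (34.6% and 35.0%) and the BCL6 motif in 1.2% (1.6% and 1.0%). The 2 motifs most above the tested genes were therefore YY1 and ETS. Of the 14 YY1 matches 10 began between positions 7 and 36 counted from the start as 1, all as spelled, so that the ATG within the motif lies on the transcript. The counts by outcome are a description. The YY1 motif was found in 4 of 38 members called lower, 7 of 19 not passing and 2 of 11 called higher. In the same order the ETS motif was in 5, 3 and 4 and the E-box in 5, 3 and 2. The CCAAT box was in 14, 3 and 6. The SP1 motif was in 9, 8 and 1 and the NRF1 motif in 1, 1 and 1. The lone BCL6 match was that of MRPS18A. A match is a run of letters in a window and not a measured site.

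For 18 members a tested gene starts within 1000 bases in the opposite direction, so that the pair faces away from a shared stretch of promoter. Of these neighbours 7 fell, 7 rose and 4 did not pass, shares near the 34.8% lower and 35.4% higher over all tested genes. In 9 pairs both genes were called, 4 of them in opposite directions, and the single pairs below are given as values only. MRPS12 fell together with its neighbour SARS2, the mitochondrial seryl-tRNA synthetase (log2 fold change -0.20), and MRPS27 with PTCD2 (-0.49). MRPS18C rose together with HELQ (0.39), a DNA helicase. In the opposite direction went MRPL51 at -0.31 and NCAPD2, a condensin subunit, at 0.21, MRPL27 at -0.25 and EME1 at 0.19, MRPL50 at -0.22 and ZNF189 at 0.15, and MRPL37 at 0.08 and CYB5RL at -0.13. MRPL18 hardly moved beside TCP1, a subunit of the cytosolic chaperonin, at -0.52, and MRPS18B hardly moved beside PPP1R10 at 0.55. MRPL46 and MRPS11 are both members and neighbours of each other, at 0.04 and 0.11.

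Several mitochondrial ribosomal proteins carry other symbols, and 7 of them were followed. DAP3, a GTP-binding protein of the small subunit, was at 189, 191 and 191 CPM against 130, 129 and 128 CPM, a log2 fold change of -0.56 (edgeR, adjusted p = 1.7e-12). CHCHD1 fell by 0.17 on the log2 scale. ICT1, a peptidyl-tRNA hydrolase built into the large subunit, was at 38.6, 37.7 and 37.5 CPM against 43.3, 41.0 and 42.7 CPM and rose (log2 0.16, edgeR, adjusted p = 0.00417). In DAP3 and ICT1 no library crossed into the range of the other group. PTCD3, AURKAIP1, GADD45GIP1 and MRP63 did not pass, with estimates between -0.09 and about 0.

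Of 16 translation factors and helpers of mitochondrial translation 10 fell and 4 rose. The shares called lower and higher over all tested genes were 34.8% and 35.4%. TUFM, the elongation factor Tu, was at 368, 367 and 380 CPM against 268, 258 and 260 CPM, a log2 fold change of -0.50 (edgeR, adjusted p = 6.41e-12). GFM1, the translocating elongation factor, was at -0.45, and OXA1L, the insertase that receives new chains at the tunnel exit, at -0.46 on the log2 scale. The 4 that rose were C12orf65, MTRF1L and MTRF1, all of the release factor family, and the initiation factor MTIF3. C12orf65 was at 51.5, 48.6 and 49.5 CPM against 92.9, 94.8 and 90.5 CPM, a log2 fold change of 0.89 (edgeR, adjusted p = 4.07e-14), and MTRF1L, MTIF3 and MTRF1 were at 0.55, 0.53 and 0.24.

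Of 27 assembly factors of the mitochondrial ribosome 13 fell, 3 rose and 11 did not pass, with a median of -0.17. The called shares were 48.1% lower and 11.1% higher, against 34.8% and 35.4% of all tested genes. FASTKD2, needed for the large ribosomal RNA, was at 85.6, 88.2 and 89.1 CPM against 56.6, 58.5 and 56.0 CPM, a log2 fold change of -0.62 (edgeR, adjusted p = 1.11e-11). C4orf14, the older symbol of the GTPase NOA1, was at -0.40. In the other direction, NGRN, a partner of the large ribosomal RNA, was at 0.35 and ERAL1, the chaperone of the small ribosomal RNA, at 0.33.

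The lists in this paragraph stand beside 34.8% called lower and 35.4% called higher over all tested genes. Of 10 genes that copy or transcribe mitochondrial DNA 6 fell and 2 rose. TFAM, which packages mitochondrial DNA and takes part in its transcription, was at 150, 154 and 147 CPM against 107, 116 and 107 CPM. Its log2 fold change was -0.45 (edgeR, adjusted p = 1.18e-09). TFB2M was at -0.43, SSBP1 at -0.35 and the topoisomerase TOP1MT at 0.53. Of 17 mitochondrial tRNA synthetases 10 fell and 1 rose (58.8% and 5.88%). EARS2 and CARS2 were at -0.63, MARS2 at -0.52 and IARS2 at -0.32. Of 24 genes for protein import 16 fell and 2 rose (66.7% and 8.33%). TOMM5 was at -0.52, TOMM20 and PMPCA at -0.48 and TOMM6 at -0.44. The medians of these lists, -0.19, -0.20 and -0.16, were near that of the ribosomal proteins.

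Among 10 known regulators of nuclear genes for mitochondria 9 were tested and all were called, 5 lower and 4 higher. Over all tested genes 70.1% were called in some direction. The median of -0.44 was the value of PPRC1, the smallest of the falls, so it does not describe the 4 rises. MYC was at -0.51 on the log2 scale, the coactivators PPARGC1B and PPRC1 at -0.69 and -0.44, ESRRA at -0.56 and GABPB2 at -0.54. NRF1 was at 0.40, GABPB1 at 0.42, GABPA at 0.18 and YY1 at 0.27. PPARGC1A had 0 counts in all libraries.

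Cytosolic ribosomal protein genes had a lower median and a higher share called lower than the mitochondrial ones. Of 80 tested cytosolic ribosomal protein genes 74 fell, 2 rose and 4 did not pass, with a median log2 fold change of -0.50. The called shares were 92.5% lower and 2.5% higher, beside 34.8% and 35.4% of all tested genes. Their share of all counts was 2.82%, 2.76% and 2.76% in the wild-type and 1.92%, 1.92% and 1.94% in the mutant rescue. A test of the difference between the 2 sets of ribosomal proteins was not made, and the values stand side by side as a description. The standard deviation of the log2 fold changes was 0.262 among the mitochondrial and 0.295 among the cytosolic genes, and 0.692 among all tested genes.

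**Figure D4:**
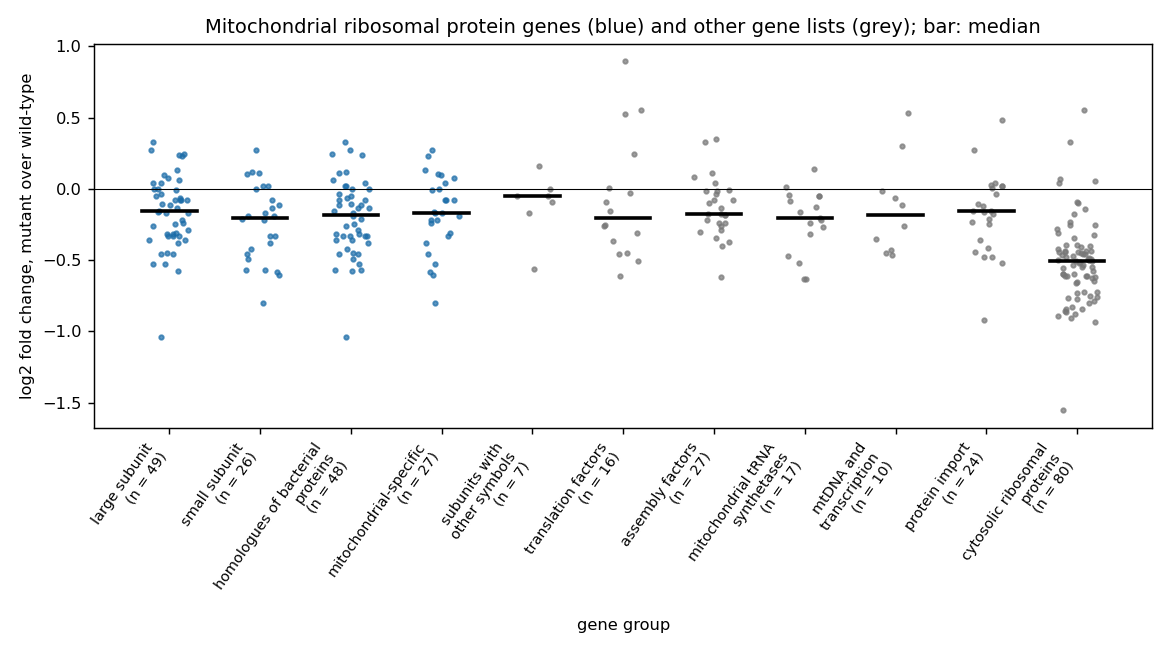
Log2 fold change (y axis, mutant over wild-type rescue) of single genes (points, spread sideways for visibility) by gene group (x axis, number of tested genes in brackets), with mitochondrial ribosomal protein genes in blue, other lists in grey and group medians as bars. The medians of the mitochondrial groups drawn here lie between -0.20 and -0.05, and that of the cytosolic ribosomal proteins at -0.50.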

How the data were processed

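RNA sequencing was done on 3 wild-type and 3 mutant rescue libraries of OCI-LY1, grouped by their labels. Per the labels' protocols, Trizol was used for total RNA and Illumina TruSeq RNA for the libraries. The submitters' processing notes name CASAVA 1.8.2, STAR, edgeR and build hg19. Not given in the sources used here are the read counter, the annotation, the strand setting and the rule for reads with several matches. Raw counts, 1 integer per gene symbol and library, were deposited.

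The counts were tested in R 4.3.3 with edgeR 4.0.16 (filterByExpr defaults, TMM, robust glmQLFit, glmQLFTest, no covariate), with Benjamini-Hochberg adjustment over 12406 genes and a threshold of 0.05. Intervals are 95% and come from the same fit. With 3 against 3 libraries an exact permutation test reaches p = 0.1 at best, and it was not used for single genes. A count of 3 corresponds to 0.109 to 0.114 CPM. Replicate libraries differed by more than counting noise (chi-square per degree of freedom 1.60 to 5.47) and all were kept. The highest values, 5.47 and 4.36, were those of mutant library 2 against mutant libraries 1 and 3. Mutant libraries 1 and 3 were at 1.75 against each other. Members and lists were chosen with earlier results of these data known. Genes given by library were the 8 largest falls and 5 largest rises with separate groups and a mean of at least 50 counts, the 4 smallest changes, the 3 highest and 3 lowest per kilobase, and MRPL3, MRPL12, MRPL45, MRPS12, MRPS36 and the 3 S18 homologues; of other lists up to 4 genes with the smallest p. MRPL1, MRPL11, MRPL41, MRPL48, MRPS16 and other members with values in the role groups, and MTRF1, MTRF1L, MTIF3, ESRRA, GABPA, GABPB2, NRF1 and YY1, were added after their values were seen. Transcript length and GC content came from GENCODE v29 (principal transcripts), overlaps, pseudogenes and promoters from RefSeq GRCh38.p14, all matched by symbol. The alternatives comprised 3 other scalings (library size, RLE, upper quartile), limma-voom (limma 3.58.1), DESeq2 1.42.0, 2 other filters, a replicate block, glmTreat, removal of GC content and length trends (mgcv 1.9.3) and leaving out each library. The test was tried on simulated counts.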

Additional observations from a re-analysis of the deposited data

How the results depend on the processing

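Of the 56 called members 46 (40 lower, 6 higher) kept their call in all 17 alternatives but the test against 1.2-fold, and no called member changed sign. The 10 that lost it in at least 1 other alternative were MRPL2, MRPL28, MRPL44, MRPL54 and MRPS5, called lower, and MRPL37, MRPL52, MRPS11, MRPS15 and MRPS22, called higher. Of the 20 members that did not pass, 7 gained a call in at least 1 alternative: MRPL11, MRPL34, MRPL38, MRPL42, MRPL45 and MRPS7 as lower and MRPL40 as higher. Against 1.2-fold 4585 genes, 22 members lower and 1 member higher were called in place of 8702, 45 and 11, by construction of that test. With library size scaling alone the medians were -0.14 for all members, -0.13 for the large and -0.18 for the small subunit, and the ratio of summed levels was 0.895. With at least 1 CPM in all libraries the small subunit median was -0.18 and the cause was not tested. With trends of GC content and length removed, with or without the replicate block, the median was -0.20 for the members and -0.23 for the small subunit, beside -0.04 for all genes; called genes were then 44.2% higher without the block, against 50.4%, and 53.7% with library size scaling. Leaving out each library in turn gave 8099 to 8916 changed genes, 42 to 46 members lower, 8 to 11 higher, and medians of -0.18 to -0.17 for all members, -0.17 to -0.13 for the large and -0.22 to -0.18 for the small subunit. MRPL37 lost its call without wild-type library 1 or 3 or mutant library 1 (adjusted p 0.119, 0.0728 and 0.0855). Same-numbered libraries correlated at 0.429, 0.441 and -0.0825 in their deviations from the group means. Wild-type 1 with mutant 2 was at -0.468 and wild-type 2 with mutant 1 at -0.461. The other crossed pairs ran from -0.128 to 0.204. Whether equal numbers mark pairs is not settled by these values, and the main fit took none. With the replicate block 9285 genes, 49 members lower and 12 higher were called. Low counts limited MRPS24 the most, at 9 to 28 counts a library.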
